A study of Mus musculus with 6 samples.

Results

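The genes described here are the molecular chaperones and heat shock proteins listed in a deposited RNA-seq table of 3 mouse mammary cell lines. They are picked out by symbol: genes of the Hspa, Hspb, Hspd, Hspe, Hsp90, Dnaja, Dnajb, Dnajc, Cct and Hsf series, Bag genes with a single digit, Hsph1 and Hspbp1. This rule, which uses no measured value, found 71 of the 11417 genes in the table. Of these, 70 passed the filter on low values and were tested. The exception was Dnajc22, a J protein gene, with 0.481 and 0.124 RPKM in BC44, 1.25 and 0.981 in HC11 and 0 in both C57MG libraries. RPKM counts reads relative to gene length and to the depth of the library.

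BC44, HC11 and C57MG are established lines labelled as mammary epithelial, and each was sequenced as 2 poly(A) RNA libraries from untreated cells on plastic. BC44 cells grew in RPMI1640, 10% serum and insulin at 5 µg/ml, and HC11 cells in the same mixture plus 10 ng/ml epidermal growth factor. C57MG cells grew in DMEM GlutaMAX, 10% serum and insulin at 10 µg/ml. All were collected 2 days after plating, and the labels name no heat shock or other treatment. Because each line had a medium of its own, line and medium cannot be told apart. The labels do not say that the 2 libraries of a line came from separate cultures, so p-values measure only the spread between these libraries. In bulk RNA a smaller share of expressing cells and less RNA per cell also cannot be told apart.

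Chaperones bind unfolded or partly folded proteins and keep them from aggregating. Small heat shock proteins hold clients without using ATP, while Hsp70 folds them in ATP-driven cycles that J proteins start and nucleotide exchange factors, among them Hsp110 and Bag proteins, complete. Hsp90 matures kinases and receptors, the ring-shaped chaperonin TRiC folds actin and tubulin, and heat shock factor Hsf1 switches on many of these genes when proteins misfold by binding repeated GAA and TTC units, the heat shock elements.

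The estimated depth was 14070000 to 18200000 reads per library. By summed markers the epithelial label held for BC44 and HC11 but not for C57MG, though some listed genes went the other way. The 13 measured genes of a 14-gene epithelial list summed to 5314 and 5106 RPKM in BC44, 3431 and 2519 in HC11, against 139 and 65.8 in C57MG. The 12 mesenchymal genes summed to 305 and 393, 257 and 331, and 7677 and 7472 RPKM. The keratin genes Krt14 and Krt5 had the highest epithelial levels in BC44, at 2716 and 2736 and at 2012 and 1828 RPKM. Krt14, at 118 and 64.8 RPKM in C57MG, made most of the epithelial sum there. Epcam and Cdh1, which define epithelial cells, were at 0.949 and 1.09 RPKM in C57MG replicate 1 and at 0 in replicate 2. In both BC44 libraries Krt18 and Cldn3 were at 0, with Krt8 at 0.038 and 0.064 RPKM. Each chaperone difference from C57MG runs alongside this difference in markers, whose part in it was not tested. Genes private to 1 line had a low signal in libraries of the others. Those private to BC44 stood, by their median, at 0.729% of their BC44 mean in C57MG replicate 1 and at 0 in replicate 2, and at 2.38% and 1.21% in HC11 replicates 1 and 2. Those private to C57MG stood at 0.666% and 2.02% of their C57MG mean in BC44 replicates 1 and 2 and at 0.251% and 0.350% in HC11. Where this signal comes from was not tested.

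The chaperone genes together took 2.26% and 2.48% of the summed RPKM in BC44, 2.12% and 2.20% in HC11, with 1.72% and 1.67% in C57MG. Every BC44 and HC11 library was above both C57MG libraries. In limma, with p-values adjusted over all 10759 genes tested and a threshold of 0.05, 32 of 70 members differed between BC44 and HC11, against 47.7% of all genes. Between BC44 and C57MG 52 differed, and between HC11 and C57MG also 52, against 71.7% and 70.5% of all genes. The members' shares, 45.7%, 74.3% and 74.3%, were thus near those of all genes, and the differences lie in which members moved. BC44 was higher than HC11 for 20 and lower for 12 members, where 24.7% of all genes were higher in BC44 and 23.0% in HC11. Against C57MG, BC44 was higher for 27 members and lower for 25 (all genes 37.5% and 34.1%). HC11 was likewise higher than C57MG for 27 and lower for 25 (all genes 37.4% and 33.2%). Without BC44 replicate 2 the count between BC44 and HC11 fell to 20, of which 11 were higher in BC44.

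The members were shifted little as a whole, since they went both ways. Their median log2 fold change was 0.15 for BC44 minus HC11, 0.08 for BC44 minus C57MG and 0.02 for HC11 minus C57MG, and that of all tested genes was 0.02, 0.04 and 0.03. In absolute size the median was 0.31, 0.51 and 0.58 over the 69 members other than Hspb1, near the 0.30, 0.57 and 0.53 of all tested genes. Differences of at least 2-fold that also passed the test were found for 4, 12 and 14 members in the 3 contrasts (all genes 12.5%, 29.8% and 27.0%). There were 7 members that passed in none of the contrasts: Hspa4, Hsp90aa1, Dnajc7, Dnajc8, Cct5, Hsf2 and Bag2. C57MG stood apart from both other lines most often, above both for 18 members and below both for 22 (all genes 25.9% and 28.5%). These contrasts share libraries and are not independent.

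**Figure D1:**
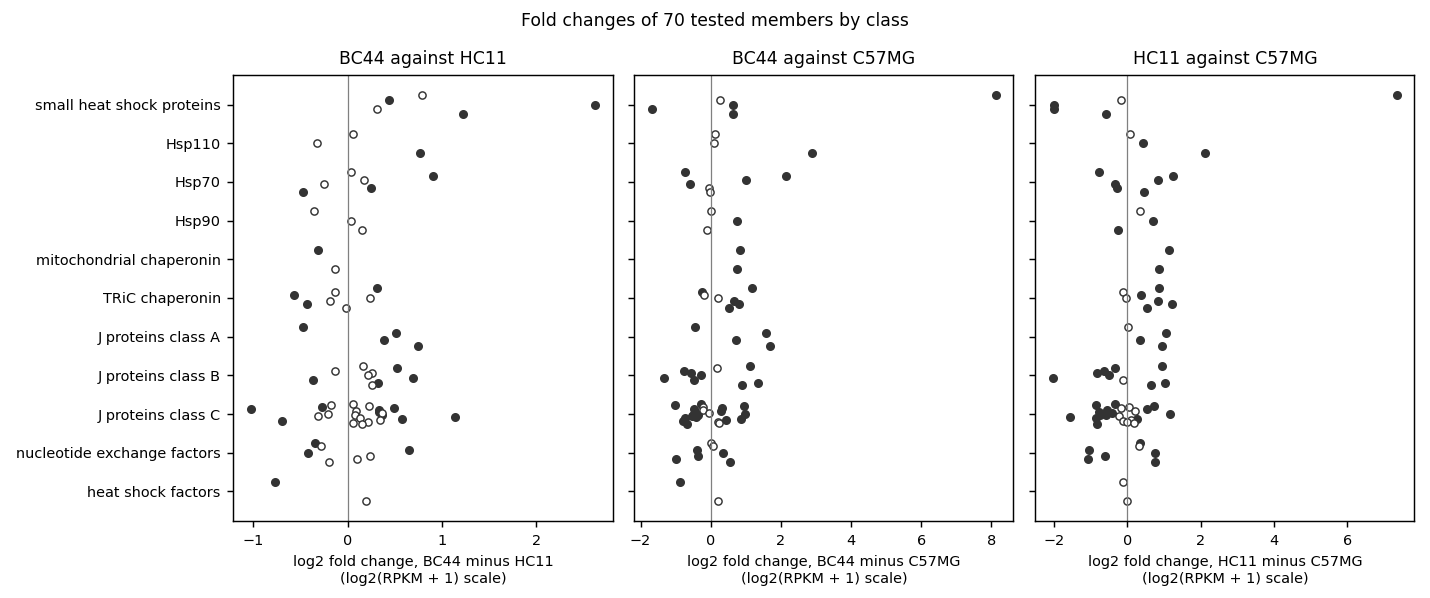
Log2 fold change on the log2(RPKM + 1) scale (x axis, with its own range in each panel) of the 70 tested members, arranged by class (rows), for the 3 pairs of lines. Filled points had a limma adjusted p under 0.05 and open points did not. Hspb1, at 8.14 and 7.35, lies far outside all other members in both panels with C57MG, whose next highest member is Hsph1 at 2.89 and 2.13.

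The summed small heat shock protein level was several times lower in C57MG than in the other lines, and Hspb1 made most of that gap. Hspb1 encodes the mouse homologue of human HSP27, an abundant oligomeric holdase that also binds actin filaments. It was at 768 and 919 RPKM in BC44, 472 and 504 in HC11, against 6.92 and 0.126 in C57MG replicates 1 and 2. No library of one line overlapped another line, and both C57MG libraries lay far below the other 4. The means were 844 ± 107 in BC44, 488 ± 23.0 in HC11 and 3.52 ± 4.81 RPKM in C57MG (SD, n = 2 each). In limma the change was 8.14 on the log2 scale for BC44 minus C57MG (SE 0.74, adjusted p = 3.93e-05) and 7.35 for HC11 minus C57MG (SE 0.74, adjusted p = 7.77e-05). By size these ranked 2 and 13 among all tested genes. The other 69 members ran from -1.68 (Hspb6) to 2.89 (Hsph1) with a median of 0.05 against BC44, and from -2.03 (Dnajb4) to 2.13 (Hsph1) with a median of 0.00 against HC11.

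The size of the Hspb1 gap rests on which C57MG library is read. Over C57MG replicate 1, where the value stood for an estimated 128 reads, BC44 was 122-fold higher (95% Poisson interval 103 to 147) and HC11 70.5-fold (59.5 to 84.8). Over replicate 2, with an estimated 2 reads, the ratios were 6696 (1890 to 56383) and 3873 (1093 to 32615). These intervals cover counting error only. Of the annotated 50-base words of Hspb1, 48.8% also occur in the pseudogene Hsp25-ps1, so its levels and these read numbers are uncertain. The 2 C57MG libraries themselves differed 54.9-fold, the largest spread of any member in any line. Without C57MG replicate 1 the log2 fold changes were 9.55 and 8.76, and without replicate 2 they were 6.73 and 5.95.

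Other epithelial genes were measured beside Hspb1 in the same C57MG libraries. Hspb1 was at 0.821% of its BC44 mean in C57MG replicate 1 and 0.0149% in replicate 2. Epcam, the epithelial adhesion molecule, was at 0.903% and 0, and the desmosome gene Dsp at 0.803% and 0.00895%. The splicing regulator gene Esrp1 was at 0.876% and 0. The Hspb1 level in C57MG replicate 1 thus lay within 0.1 percentage points of these 3 genes. It was also near the median of 0.729% of the genes private to BC44, which were only 11 (quartiles 0.587% and 1.03%). Krt14 and Itgb4 stood higher, at 4.33% and 2.38% and at 1.26% and 0.399%.

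**Figure D2:**
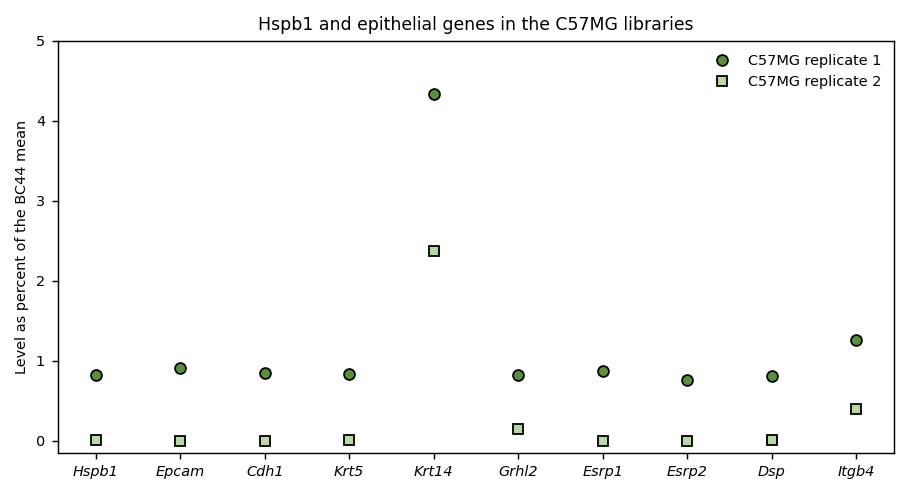
Level in C57MG replicates 1 and 2 as percent of the BC44 mean (y axis) for Hspb1 and the genes of the epithelial list with at least 20 RPKM in BC44 (x axis). Hspb1 is at 0.821% in replicate 1 and 0.0149% in replicate 2, beside Epcam at 0.903% and 0.

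Between BC44 and HC11 the Hspb1 result depended on the libraries that set the spread. With all 6 libraries the difference was 0.78 on the log2 scale (SE 0.74, limma adjusted p = 0.426), although both BC44 values were above both HC11 values. With only the BC44 and HC11 libraries the same 0.78 passed (limma adjusted p = 0.00327), and it also passed without C57MG replicate 1 (0.00109) or replicate 2 (0.00111). The wide spread between the C57MG libraries enters the pooled estimate. By absolute size Hspb1 ranked 6 of 70 members here.

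The remaining Hspb genes did not follow Hspb1. Hspb8, which works with Bag3 to send misfolded proteins to autophagy, was at 127 and 134 RPKM in BC44, 54.3 and 56.8 in HC11, with 86.7 and 80.2 in C57MG. The order BC44, C57MG, HC11 had no overlap, and BC44 exceeded HC11 by 1.22 on the log2 scale (SE 0.08, limma adjusted p = 2.08e-05). Hspb8 made 13.9% and 12.5% of the summed small heat shock protein RPKM in BC44, 10.2% and 10.0% in HC11, against 75.2% and 77.8% in C57MG. Hspb1 made 84.0% and 85.9%, 88.4% and 88.9%, and 6.00% and 0.122% in the same order. The summed class was at 915 and 1070 RPKM in BC44, 533 and 567 in HC11, with 115 and 103 in C57MG.

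Hspb6, known as Hsp20 and abundant in smooth muscle, was highest in C57MG. It was at 3.21 and 2.87 RPKM in BC44, 2.27 and 2.22 in HC11, against 11.2 and 12.8 in C57MG. Against C57MG its log2 fold changes were -1.68 for BC44 and -2.0 for HC11 (SE 0.11 each, limma adjusted p = 6.85e-06 and 3.32e-06). Hspb2, a muscle-enriched member, was lowest in HC11, at 1.09 and 0.332 RPKM, with 10.3 and 8.39 in BC44 and 5.67 and 5.64 in C57MG. BC44 exceeded HC11 by 2.62 (SE 0.21, limma adjusted p = 5.71e-05), the largest difference of any member in that contrast. Its exons overlap those of Cryab on the opposite strand over 30.2% of their length, and whether counting used the strand is not given in the sources used here, so its reads and those of Cryab may be mixed. Hspb11, which serves intraflagellar transport despite its name, stayed between 3.81 and 5.98 RPKM in all libraries.

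**Figure D3:**
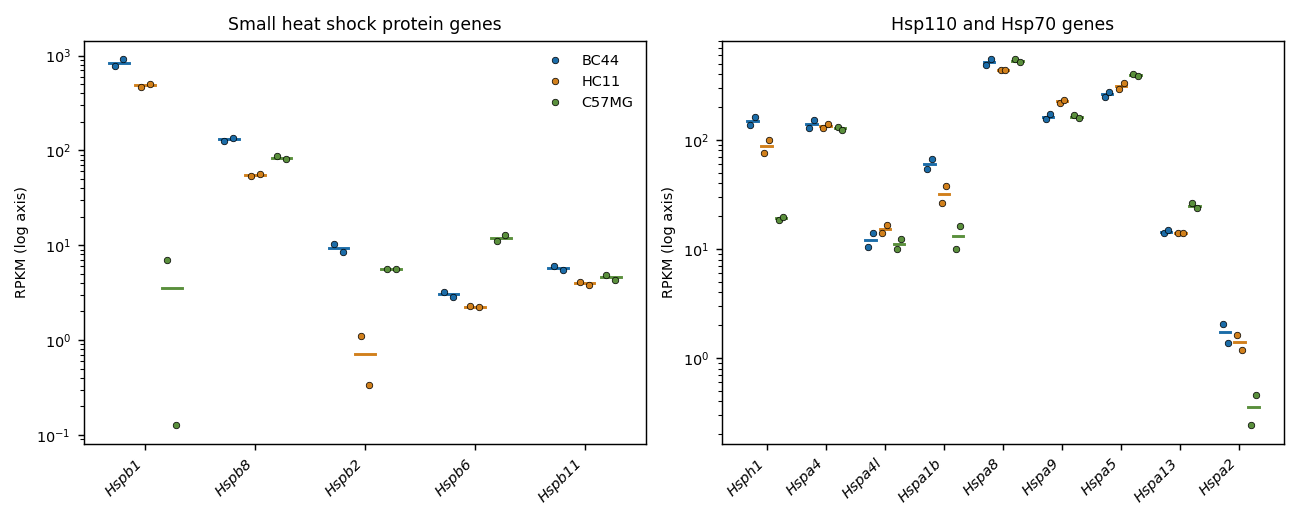
RPKM on a log axis (y axis) of the small heat shock protein genes (left) and the Hsp110 and Hsp70 genes (right), with 1 point per library, lines by colour and short bars for line means. Hspb1 spans 919 RPKM in BC44 to 0.126 in C57MG, while Hspa4 stays between 124 and 153 RPKM in all 6 libraries.

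Promoter sequence was examined because several of the genes that differ most are classical targets of Hsf1. RefSeq (GRCm38.p6) gave the 250 bases before the start for 56 of the 71 members, and these were searched on both strands. Paired units, GAANNTTC or TTCNNGAA, were in 14 of the 56 (25%), against 14.5% of 27025 genes. The 3-unit heat shock element, a GAA, a TTC and a GAA unit or their reverse with 2 free bases between units, which contains both paired forms, was in 3 (5.36%), against 0.514%. Those 3 were Dnajb6, Hspd1 and Hspe1, and all 3 were lower in C57MG than in both other lines. Hspd1 and Hspe1 match through the same stretch, so that site is counted under both genes in the 3 (5.36%). The first 3 stretches below show the paired units, in capitals, for Hspb1 and Hspa1b, lower in C57MG, and for Dnajb4, higher there. They lie at chr5:135887796-135887855 (plus strand), chr17:34959309-34959368 (minus) and chr3:152193846-152193905 (minus), ending 63, 70 and 0 bases before the start, and are written 5′ to 3′.
Hspb1: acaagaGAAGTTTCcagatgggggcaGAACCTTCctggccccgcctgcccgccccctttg
Hspa1b: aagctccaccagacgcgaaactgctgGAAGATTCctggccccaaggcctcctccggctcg
Dnajb4: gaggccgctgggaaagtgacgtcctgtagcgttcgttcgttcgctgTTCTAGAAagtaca
The next stretches show the 3-unit runs of Hspe1 (chr1:55088053-55088082, plus strand, 65 bases before its start) and Dnajb6 (chr5:29735843-29735872, plus) and the paired units of Hsph1 (chr5:149636351-149636380, minus). The Hspe1 run is extended by a further unit, and the same stretch lies 120 bases before the RefSeq start of Hspd1 on the opposite strand. In the GENCODE M21 annotation, exons of Hspd1, Dnajb6 and Hsph1 reach into the 60 bases around these stretches. They may thus lie inside transcripts rather than before them. No annotated exon reaches into the first 3 stretches. The Dnajb4 stretch still lies inside the gene as annotated in GENCODE M21, chr3:152178511-152210302 on the minus strand. It precedes a RefSeq start that lies downstream of that gene's annotated start.
Hspe1: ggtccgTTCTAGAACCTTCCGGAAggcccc
Dnajb6: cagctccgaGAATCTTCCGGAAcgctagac
Hsph1: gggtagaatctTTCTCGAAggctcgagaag
Matches were found in members higher and in members lower in C57MG, and a match describes these letters only.

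Hsp110 proteins release ADP from Hsp70, and the stress-inducible member Hsph1 differed between all lines. Hsph1 was at 137 and 161 RPKM in BC44, 75.6 and 100 in HC11, with 18.6 and 19.6 in C57MG. The libraries followed the order BC44, HC11, C57MG without overlap. The log2 fold changes were 0.76 for BC44 minus HC11, 2.89 for BC44 minus C57MG and 2.13 for HC11 minus C57MG (SE 0.14, limma adjusted p = 0.00353, 1.39e-06 and 7.69e-06). After Hspb1 this was the largest fall into C57MG. Its constitutive relative Hspa4 stayed between 124 and 153 RPKM and passed in no contrast. Hsph1 per Hspa4 was therefore 1.06 and 1.05 in BC44, 0.582 and 0.715 in HC11, against 0.141 and 0.158 in C57MG. Hspa4l, the third of the class, lay between 10.0 and 16.7 RPKM.

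Among Hsp70 genes the stress-inducible Hspa1b showed the same order of lines without overlap. Hspa2 showed that order by its means only, with BC44 and HC11 overlapping, and the other Hsp70 genes did not show it. Hspa1b was at 53.9 and 66.3 RPKM in BC44, 26.2 and 38.0 in HC11, with 10.0 and 16.2 in C57MG. Its log2 fold change was 2.14 for BC44 minus C57MG and 1.24 for HC11 minus C57MG (SE 0.24, limma adjusted p = 0.00012 and 0.00241). For BC44 minus HC11 it was 0.90 (limma adjusted p = 0.0182), and this call was lost without BC44 replicate 1 (0.0501), BC44 replicate 2 (0.117) or HC11 replicate 1 (0.0772). Of the annotated Hspa1b 50-base words 62.3% also occur in its near-identical neighbour Hspa1a, which was not analysed here, so its level may hold reads of both.

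Hspa8, the constitutive cytosolic Hsp70 and the most abundant gene of the class, was at 490 and 551 RPKM in BC44, 439 and 438 in HC11, against 546 and 520 in C57MG. Other annotated genes hold 38.6% of its 50-base words, so its level is uncertain. Hspa8 was lowest in HC11, but neither difference was firm. BC44 minus HC11 was 0.24 (limma adjusted p = 0.0467), lost in 12 of 16 alternatives. These 12 include leaving out BC44 replicate 2 (0.245), either HC11 library (0.0674 and 0.0757) or either C57MG library (0.0797 and 0.0806). HC11 minus C57MG was -0.28 (0.0187), lost without C57MG replicate 1 (0.114) or 2 (0.056).

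Hspa9, the mitochondrial Hsp70 that pulls imported proteins across the inner membrane, was highest in HC11. It was at 218 and 232 RPKM there, 154 and 171 in BC44, and 168 and 159 in C57MG, with BC44 and C57MG overlapping. BC44 minus HC11 was -0.47 (SE 0.08, limma adjusted p = 0.003). Hspa2, best known from testis, was at 2.06 and 1.39 RPKM in BC44 and 0.242 and 0.463 in C57MG, a log2 difference of 1.00 (SE 0.16, limma adjusted p = 0.000812). HC11 had 1.62 and 1.19 RPKM. The summed Hsp70 class was highest in C57MG, without overlap, at 961 and 1082 RPKM in BC44, 990 and 1056 in HC11, with 1152 and 1105 in C57MG.

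Hsp90ab1, the constitutive cytosolic Hsp90 and the most abundant member of all, was at 1548 and 1633 RPKM in BC44, 1535 and 1565 in HC11, against 971 and 937 in C57MG. BC44 and HC11 overlapped, and both exceeded C57MG by 0.74 and 0.70 on the log2 scale (SE 0.08, limma adjusted p = 0.000101 and 0.000151). Hsp90aa1, the inducible form, passed in no contrast, with 219 and 287, 279 and 370, and 243 and 257 RPKM. Its share of the cytosolic pair was 12.4% and 14.9% in BC44, 15.4% and 19.1% in HC11, with 20% and 21.6% in C57MG. Of its 50-base words 47.5% occur in other annotated genes, so its level is uncertain.

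Both subunits of the mitochondrial chaperonin were lower in C57MG. Hspd1, the Hsp60 barrel, was at 363 and 438 RPKM in BC44, 482 and 512 in HC11, against 240 and 211 in C57MG. Hspe1, the Hsp10 lid, was at 145 and 150, 163 and 160, and 91.1 and 84.0 RPKM. Against C57MG, Hspd1 was higher by 0.82 in BC44 and 1.14 in HC11 (SE 0.11, limma adjusted p = 0.000342 and 6.41e-05). Hspe1 was higher by 0.75 and 0.88 (SE 0.07, limma adjusted p = 6.04e-05 and 2.9e-05). The ratio of Hspd1 to Hspe1 stayed between 2.50 and 3.20 in all 6 libraries. These neighbouring genes start from 1 shared promoter region, whose 3-unit run is printed above. For BC44 minus HC11, Hspd1 was at -0.32 (limma adjusted p = 0.0492), a call lost in 12 of 16 alternatives. Among these were leaving out BC44 replicate 1 (0.268), HC11 replicate 1 (0.0596) or 2 (0.135), or C57MG replicate 1 (0.0558) or 2 (0.0562). Words shared with other genes cover 39.7% of Hspd1 and 18.4% of Hspe1.

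TRiC is built from single copies of related subunits in each ring, of which the 7 Cct members are measured here. Their levels were unequal and changed in different ways between lines. Cct2 was at 399 and 429 RPKM in BC44, 333 and 334 in HC11, with 193 and 175 in C57MG, with BC44 minus C57MG at 1.17 (SE 0.08, limma adjusted p = 9.12e-06). Cct7 was highest in HC11, at 343 and 347 RPKM, with 249 and 263 in BC44 and 152 and 142 in C57MG. HC11 minus C57MG was 1.23 for Cct7 (SE 0.07, limma adjusted p = 5e-06), and BC44 minus HC11 was -0.43 (0.0026). Cct4 was also highest in HC11, at 134 and 136 RPKM against 86.4 and 94.5 in BC44 and 107 and 100 in C57MG. BC44 minus HC11 was -0.57 for Cct4 (SE 0.08, limma adjusted p = 0.000858).

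Cct5 passed in no contrast, with values from 211 to 271 RPKM, and Cct3 was the 1 subunit whose level in a C57MG library, at 103 RPKM, was the highest of the 6. Cct6a and Cct8 were lower in C57MG than in both other lines. In all, 4 of the 7 subunits were higher in BC44 and 1 in C57MG, with a median log2 fold change of 0.51, and 5 were higher in HC11 and 0 in C57MG, with a median of 0.53. The share that passed, 71.4% in both contrasts, was near that of all genes (71.7% and 70.5%). The ratio of the highest to the lowest subunit was 4.99 and 4.86 in BC44, 4.19 and 4.32 in HC11, against 2.19 and 2.27 in C57MG, so the subunit levels were closest together in C57MG. Tcp1, the remaining subunit gene of the ring and outside the symbol rule, was at 151 and 165, 148 and 154, and 121 and 115 RPKM.

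**Figure D4:**
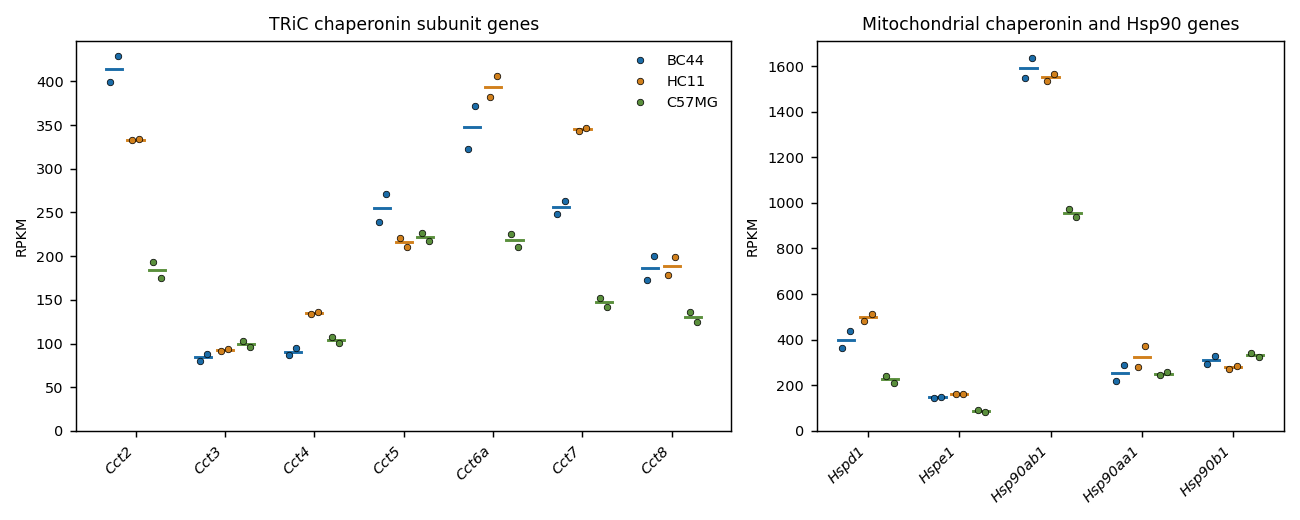
RPKM from 0 on a linear axis (y axis) of the Cct genes (left) and of the mitochondrial chaperonin and Hsp90 genes (right), with 1 point per library, lines by colour and short bars for line means. Cct2 falls from 429 RPKM in BC44 to 175 in C57MG while Cct5 stays between 211 and 271 RPKM.

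J proteins bring clients to Hsp70 and stimulate its ATPase. The 4 class A members, built like the bacterial DnaJ, all differed between BC44 and HC11, 3 higher in BC44. Of all genes 47.7% differed there and 24.7% were higher in BC44. Dnaja2, a main cytosolic J protein, was at 193 and 209 RPKM in BC44, 139 and 142 in HC11, with 70.1 and 64.7 in C57MG. Its log2 fold changes against C57MG were 1.56 and 1.05 for BC44 and HC11 (SE 0.08, limma adjusted p = 1.74e-06 and 1.6e-05). Dnaja4 showed the same order, at 9.0 and 9.71, 5.42 and 4.96, and 2.37 and 2.06 RPKM. BC44 minus C57MG was 1.69 for Dnaja4 (SE 0.11, limma adjusted p = 5.94e-06), but 44.1% of its exon length overlaps Wdr61. Dnaja1, which carries a farnesyl lipid anchor, went the other way, at 22.3 and 24.1 RPKM in BC44, 29.0 and 36.7 in HC11, against 30.7 and 33.3 in C57MG. BC44 minus HC11 was -0.48 for Dnaja1 (limma adjusted p = 0.0143), lost without BC44 replicate 1 (0.0881) or HC11 replicate 2 (0.0529, where the difference was -0.31). Dnaja2 per Dnaja1 was 8.67 and 8.66 in BC44, 4.78 and 3.88 in HC11, with 2.28 and 1.94 in C57MG.

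Class B members split. Dnajb1, the heat-inducible partner of Hsp70, was at 64.5 and 71.7 RPKM in BC44, 59.8 and 61.2 in HC11, against 31.0 and 30.7 in C57MG, and BC44 minus C57MG was 1.12 (SE 0.08, limma adjusted p = 1.01e-05). Dnajb6, which keeps polyglutamine proteins from aggregating, was at 36.4 and 39.9, 30.7 and 29.9, and 14.3 and 14.7 RPKM, with differences from C57MG of 1.34 and 1.02 (SE 0.08, limma adjusted p = 4.7e-06 and 2.29e-05). Dnajb4, a close relative of Dnajb1, was instead highest in C57MG, at 18.8 and 18.5 RPKM against 6.04 and 7.50 in BC44 and 3.03 and 4.72 in HC11. BC44 minus C57MG was -1.34 and HC11 minus C57MG -2.03 for Dnajb4 (SE 0.18, limma adjusted p = 0.000279 and 3.34e-05). Its excess in BC44 over HC11, 0.69 (0.0151), was lost without BC44 replicate 2 (0.55, 0.101) and was 0.43 without HC11 replicate 1 (0.0399).

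Class C members share only the J domain and have separate duties. Of the 22 tested, 6 were higher in BC44 and 11 in C57MG, and 4 were higher in HC11 and 10 in C57MG, with medians of -0.25 and -0.19. Of all genes 37.5% were higher in BC44 and 34.1% in C57MG, and 37.4% in HC11 and 33.2% in C57MG. Dnajc2, which sits on ribosomes beside emerging chains, was at 23.3 and 28.5 RPKM in BC44, 29.0 and 30.6 in HC11, with 13.6 and 11.9 in C57MG. HC11 minus C57MG was 1.17 for Dnajc2 (SE 0.12, limma adjusted p = 7.23e-05). Dnajc9, a histone chaperone, was highest in C57MG, at 86.9 and 91.9 RPKM against 51.7 and 60.6 in BC44 and 46.7 and 54.4 in HC11. HC11 minus C57MG was -0.81 for Dnajc9 (SE 0.11, limma adjusted p = 0.00033).

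Dnajc15, an inner mitochondrial membrane protein, had the largest excess of HC11 over BC44 among members, at 34.0 and 31.3 against 17.1 and 14.1 RPKM (-1.03, SE 0.12, limma adjusted p = 0.000339), with 23.6 and 20.8 in C57MG. Dnajc5, the cysteine string protein of secretory vesicles, was lowest in BC44, at 12.5 and 14.2 RPKM against 21.9 and 22.6 in HC11 and 24 and 23.9 in C57MG (-0.70 and -0.80, limma adjusted p = 0.000655 and 0.000122). Dnajc27, a Rab-like GTPase with a J domain, was listed at 0 in both HC11 libraries, with 1.05 and 1.37 RPKM in BC44 and 1.83 and 2.01 in C57MG. It passed in both contrasts with HC11 (limma adjusted p = 0.000138 and 1.02e-05), and no fold is given against 0. Its neighbours Cenpo and Dnmt3a were above 0 in every library.

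The 10 members listed as working in the endoplasmic reticulum were mostly higher in C57MG. The list was chosen by hand with earlier results known and may leave out other such members. Of the 10, 7 were higher in C57MG than in BC44 and 9 higher than in HC11, each against 1 in the other direction, where 34.1% and 33.2% of all genes were higher in C57MG. The medians were -0.57 and -0.48, against 0.04 and 0.03 for all genes. Hspa5, the reticulum's Hsp70 and sensor of unfolded protein, was at 247 and 278 RPKM in BC44, 291 and 334 in HC11, against 401 and 385 in C57MG. BC44 minus C57MG was -0.58 (SE 0.10, limma adjusted p = 0.00102), and HC11 minus C57MG was -0.33 (0.0163), lost without HC11 replicate 1 (0.0577) or C57MG replicate 1 (0.0857). Dnajc10, which reduces disulfides of proteins bound for degradation, was at 28.7 and 27.6, 32.8 and 31.0, and 59.0 and 57.1 RPKM. Its differences from C57MG were -1.02 and -0.84 (SE 0.08, limma adjusted p = 1.25e-05 and 4.02e-05). Dnajc3, an inhibitor of the kinase Perk, was at 18.0 and 20.3, 16.3 and 18.4, and 32.1 and 32.4 RPKM, with differences of -0.73 and -0.86 (SE 0.10, limma adjusted p = 0.000318 and 0.000142).

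The exception in both contrasts was Dnajb9, a cochaperone of Hspa5 that restrains the sensor Ire1, with 9.32 and 10.8 RPKM in BC44, 7.10 and 9.47 in HC11, with 4.75 and 5.11 in C57MG. Dnajb11, a soluble cochaperone of Hspa5, was lowest in HC11, at 49.4 and 53.4 RPKM against 72.4 and 76.2 in BC44 and 67.7 and 62.3 in C57MG (BC44 minus HC11 0.52, SE 0.08, limma adjusted p = 0.00167). Hsp90b1, the reticulum's Hsp90, ranged from 269 to 340 RPKM. Between BC44 and HC11, 1 of the 10 listed, Dnajb11, passed, against 47.7% of all genes, a share that depends on which members were listed. Against C57MG, the 8 members listed as mitochondrial ran the other way. Of these, 5 were higher in BC44 and 1 in C57MG, and 7 were higher in HC11 and 1 in C57MG. The medians were 0.73 and 0.50, and 37.5% and 37.4% of all genes were higher in BC44 and HC11.

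**Figure D5:**
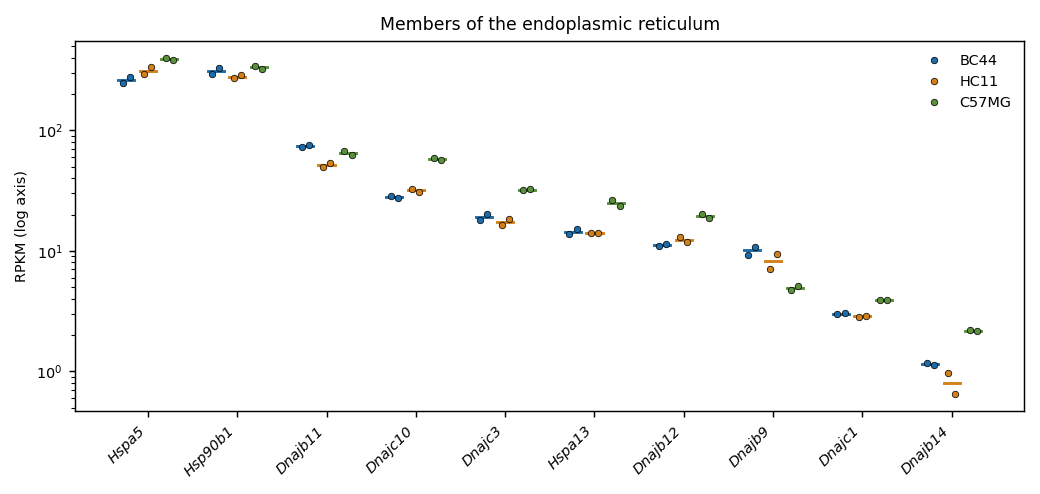
RPKM on a log axis (y axis) of the 10 members listed for the endoplasmic reticulum (x axis). There is 1 point per library, with lines by colour and short bars for line means. The C57MG points are the highest for most genes, such as Hspa5 at 401 and 385 RPKM, and the lowest for Dnajb9 at 4.75 and 5.11.

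Nucleotide exchange factors also split. Bag3, the stress-inducible partner of Hspb8 in selective autophagy, was highest in C57MG, at 50.4 and 42.4 RPKM, with 34.1 and 35.7 in BC44 and 20.9 and 22.8 in HC11. HC11 minus C57MG was -1.05 and BC44 minus HC11 0.65 for Bag3 (SE 0.10, limma adjusted p = 6.11e-05 and 0.00162). BC44 minus C57MG was -0.40 (0.00909), lost without BC44 replicate 1 (0.0532) or C57MG replicate 1 (0.0838). Bag6, which guards tail-anchored membrane proteins, was at 22.5 and 22.0, 20.8 and 20.7, and 43.8 and 45.7 RPKM. Its differences from C57MG were -0.98 and -1.07 (SE 0.07, limma adjusted p = 1.49e-05 and 1.05e-05). Bag1, which links Hsp70 to the proteasome, was highest in HC11, at 161 and 175 RPKM against 135 and 129 in BC44 and 136 and 129 in C57MG. Its BC44 minus HC11 difference of -0.35 (limma adjusted p = 0.00806) was lost without BC44 replicate 2 (0.0523).

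The regulator Hsf1 was lowest in BC44, the line with the highest Hspb1, Hsph1 and Hspa1b. It was at 18.8 and 22.7 RPKM in BC44, 36.3 and 35.6 in HC11, against 39.9 and 37.5 in C57MG. BC44 minus HC11 was -0.77 and BC44 minus C57MG -0.87 (SE 0.10, limma adjusted p = 0.000736 and 0.000148), and HC11 and C57MG did not differ beyond their spread by the same test (-0.10, 0.39). Hsf2 passed in no contrast, at 10.9 to 14.4 RPKM. RNA levels do not measure the activity of Hsf1. Of 13 members listed as heat-inducible, 8 were higher in BC44 and 2 in C57MG, and 8 were higher in HC11 and 3 in C57MG, with medians of 0.74 and 0.70, where 37.5% and 37.4% of all genes were higher in BC44 and HC11. The 2 above BC44 in C57MG were Bag3 and Dnaja1. The list also holds Hsp90ab1 and Hspa8, described above as constitutive, so it is not purely of stress-inducible genes. Hsp90ab1 was among those higher in BC44 and in HC11, and Hspa8 among those higher in C57MG than in HC11. Between BC44 and HC11, 5 of the 13 were higher in BC44 and 2 in HC11, with a median of 0.17. Of all genes 24.7% were higher in BC44 and 23.0% in HC11.

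Of 65 tested pathway genes outside the symbol rule, 11 were higher in BC44 and 14 in HC11, 24 in BC44 and 22 in C57MG, and 25 in HC11 and 20 in C57MG. The shares that passed, 38.5%, 70.8% and 69.2%, compare with 47.7%, 71.7% and 70.5% of all genes. Cryab, a small heat shock protein named as a crystallin, was at 244 and 211 RPKM in BC44, 42.3 and 64.0 in HC11, with 54.0 and 50.1 in C57MG, with differences of 2.10 from each (SE 0.18, limma adjusted p = 8.34e-05 and 2.56e-05). HC11 and C57MG overlapped, unlike for Hspb1. Serpinh1, the collagen chaperone Hsp47, was at 568 and 542 RPKM in C57MG, 49.3 and 40.7 in HC11, and 3.29 and 10.1 in BC44. HC11 minus C57MG was -3.60 and BC44 minus C57MG -6.33 for Serpinh1 (SE 0.37, limma adjusted p = 8.97e-05 and 3.91e-06). As percent of the C57MG mean, both BC44 values lie within the interquartile range of the genes private to C57MG in the same libraries. Among 21 other listed chaperones and folding enzymes of the reticulum, 3 were higher in BC44 and 12 in C57MG. Against HC11 they were mixed, with 9 higher in HC11 and 10 in C57MG. Of all genes 37.5% were higher in BC44 and 34.1% in C57MG, and 37.4% in HC11 and 33.2% in C57MG. Between BC44 and HC11, 0 of the 21 were higher in BC44 and 8 in HC11, against 24.7% and 23.0% of all genes. Pdia5, a disulfide isomerase, was higher in C57MG, with log2 fold changes of -1.86 for BC44 and -2.07 for HC11 minus C57MG (SE 0.12, limma adjusted p = 5.39e-06 and 3.59e-06). Erp29 was higher in BC44 and HC11 than in C57MG, by 1.12 and 1.11 on the log2 scale (SE 0.12, limma adjusted p = 0.000112 and 0.000131).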

How the data were processed

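Poly(A) RNA of 6 libraries was measured. The deposited table gives RPKM computed by the authors for 11417 genes. STAR and the mouse build mm9 are named per the submitters' processing notes, without role or version. The counter, annotation, gene lengths, strand use and any gene filter are not given in the sources used here. The rule for members reads gene symbols only, but the members, gene lists and classes were chosen with earlier results of these data known.

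The log2(RPKM + 1) values entered limma 3.58.1 under R 4.3.3, with lmFit, contrasts.fit and eBayes with trend, all 6 libraries sharing 1 estimate of the spread. Genes needed at least 1 RPKM in at least 2 libraries (10759 tested, 658 not). P-values were two-sided and Benjamini-Hochberg adjusted over all tested genes within each of 3 contrasts, with a threshold of 0.05. Fold changes on this scale understate those of low genes. The procedure was tested on simulated data. Fold changes were named for Hspb1, for up to 10 members per contrast and direction with the largest passing, non-overlapping change, for 8 preset genes where they passed, and for up to 3 pathway genes per contrast and direction. Dnajb9, Hsf2, Tcp1, Hsp90aa1 and the other members given by level alone were described outside this rule.

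Depth was estimated from the steps of low RPKM values, using GENCODE M21 exon lengths on GRCm38, so read numbers are estimates: 81.4% to 83.7% of the 166 to 292 low values per library lay within 0.15 reads of a whole number, against 30% by chance. Shared 50-base words and exon overlaps come from the same annotation, and promoters from RefSeq without chromosome 18. Genes private to a line had a mean of at least 20 RPKM there, at most 2% of it in the third line and at most 5% in the other replicate. Tables and plots used Python 3.11.15, numpy 2.4.6, pandas 2.3.3 and matplotlib 3.10.9. The alternatives varied the pseudocount, filter, scaling, variance model, replicate block and libraries included.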

Additional observations from a re-analysis of the deposited data

How the results depend on the processing

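Of 90 log2 fold changes, 78 kept their side of the threshold under every alternative run, 11 lost it under at least 1, the Hspb1 difference between BC44 and HC11 gained it under 4, and 0 reversed. Leaving out 1 library at a time gave 20 to 33 members called between BC44 and HC11 (11 to 19 higher in BC44, 9 to 14 in HC11), 41 to 53 between BC44 and C57MG (17 to 26 higher in C57MG) and 45 to 52 between HC11 and C57MG, where a lone library was assumed to vary like the others. Over all genes these counts were 3600 to 4758, 6128 to 7947 and 5835 to 7339. Without BC44 replicate 2 the first count was 20, with 11 higher in BC44. Leaving out both BC44 replicate 2 and C57MG replicate 1, a setting chosen after seeing the data, gave 19 members (12 higher in BC44, 7 in HC11) and 2996 genes between BC44 and HC11, and 34 members (12 higher in C57MG) and 4875 genes between BC44 and C57MG. A replicate block on the number gave 34, 53 and 53 members and 5350, 7875 and 7721 genes in the 3 contrasts. Same-numbered libraries deviated together with correlations of 0.354, -0.04 and 0.04 across genes, so BC44 and HC11 shared some variation by number. The numbers mark no stated shared origin and were not treated as pairing in the main fit. Depth limits Hspb1 in C57MG replicate 2, where the value stood for an estimated 2 reads.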

Other observations

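BC44 replicate 2 was above replicate 1 for 52 of the 71 members, with a median difference of 0.11 on the log2 scale, against 0.02 over all tested genes. In HC11 replicate 2 was higher for 39 members (median 0.02) and in C57MG for 23 (median -0.06). Replicate 2 was above replicate 1 in all 3 lines for 11 members (15.5%), close to the 14.6% of all tested genes. Among the 13 members listed as heat-inducible these were 5: Dnaja1, Hsp90aa1, Hspa1b, Hspa4l and Hsph1. Replicate numbers are not stated to mark a shared day or batch.

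The genes beside Hspb1 on mouse chromosome 5 differed in direction. The nearest listed gene on each side was lower in C57MG. Mdh2, mitochondrial malate dehydrogenase, was at 265 and 280 RPKM in BC44, 272 and 264 in HC11, against 135 and 127 in C57MG. Ywhag, which encodes 14-3-3 gamma, was at 145 and 148, 171 and 174, and 71.5 and 67.7 RPKM. Farther out, Tmem120a was highest in HC11, at 41.1 and 47.1 RPKM, with 20.1 and 21.9 in BC44 and 27.5 and 23.8 in C57MG. Ssc4d was highest in C57MG, at 1.45 and 1.16 RPKM against 0.460 to 0.821 in the other lines. Of the 50-base words of Hspb1, 48.8% also occur in the pseudogene Hsp25-ps1.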
